A study of Mus musculus with 2 samples.

Results

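Desmosomes were examined at the transcript level in 3D colonies/organoids that had grown from mouse mammary basal cells. The 10 genes followed here are the desmogleins Dsg1a, Dsg2 and Dsg3, the desmocollins Dsc1, Dsc2 and Dsc3, the armadillo genes Jup, Pkp1 and Pkp3, and the plakin gene Dsp. They were taken by name as core desmosome components, with earlier results of these data known. All 10 were found among the 49492 genes in the deposited count table. Basal cells (lineage negative, CD24+, CD29 high) were sorted from the glands of adult female WT mice, embedded in matrix gel and kept in a medium with EGF and insulin-transferrin-selenium. One group received no further treatment (control) and the other received mouse TNF-α at 10 ng/mL, and the series design gives 10 days of culture. Each group was 1 library, so no difference below has a replicate check, no test between the conditions was possible, and single cultures and the treatment cannot be told apart. The number of animals behind each culture is not given in the sources used here.

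A desmosome is a spot-like junction that fastens neighbouring epithelial cells to each other and anchors their keratin filaments. Desmogleins and desmocollins are cadherins that reach across the gap between cells. Inside the cell their tails bind plakoglobin, encoded by Jup, and the plakophilins, and desmoplakin, encoded by Dsp, links this plaque to keratin. In stratified epithelia Dsg3 and Dsc3 are known from the basal layers and Dsg1 and Dsc1 from the upper, differentiating layers, while Dsg2 and Dsc2 are widespread in simple epithelia too. In the mammary gland desmosomes join luminal and basal cells within the ducts.

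All 10 desmosome genes were at a lower level with TNF-α than without it, and Dsc1 and Dsg1a, 2 of the 10, were past a 2-fold difference. Dsc1 stood at 9.56% of its control level and Dsg1a at 33.7%. The other 8 genes lay between a log2 ratio of -0.74 for Dsc2 and -0.12 for Dsg2, with a median of -0.34. The median over all 10 was -0.48, where the median over the 20771 genes with at least 10 counts in sum was 0.0038. Here a log2 ratio is that of counts scaled to library size (CPM), TNF-α over control, with library sizes set by the TMM method and 2 prior counts were added. Of those 20771 genes 6.62% were more than 2-fold lower with TNF-α and 8.56% more than 2-fold higher. All 10 desmosome genes were well counted, with sums from 1380 to 489854 counts, so genes with at least 1000 counts in sum are the closer background. This minimum is a floor and not a match in depth, and Dsc1 passed it only through its control counts. Among the 9345 genes with at least 1000 counts in sum, 2.02% were more than 2-fold lower, 2.65% more than 2-fold higher, and 50.0% lower by any amount. The 95% intervals given for single genes (Clopper-Pearson, on the share of a gene's counts that came from the TNF-α library) cover counting error only. Reads copied by PCR and not marked by molecular identifiers may repeat a molecule, and how far cultures vary is not in these intervals. They lay below 0 for all 10 genes.

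**Figure D1:**
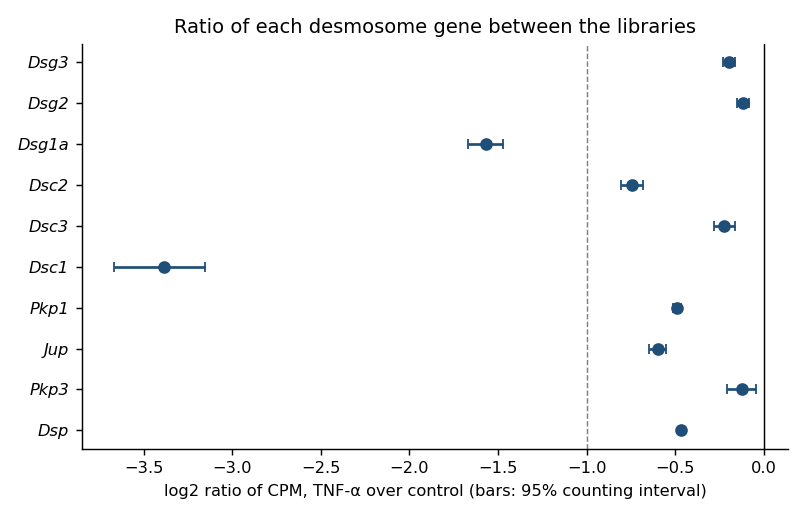
Log2 ratio of CPM, TNF-α over control, for the 10 desmosome genes, with 1 library per condition. Points are ratios, bars are 95% counting intervals, and the dashed line marks a 2-fold lower level. All 10 points lie left of 0, and Dsc1 at -3.39 and Dsg1a at -1.57 lie past the dashed line.

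The libraries held 44462275 counts (control) and 53487087 counts (TNF-α). Basal genes were abundant in both, with Krt14 at 229766 and 259922 counts and Trp63, the gene of the transcription factor p63, at 9329 and 11400. The 10 basal and myoepithelial markers had a median of -0.26 on the log2 scale, with 7 of them lower and 3 higher, and Lgr5 (-1.20) and Oxtr (-1.19) were more than 2-fold lower. The 8 leukocyte markers summed to 8.32 CPM in the control and 6.54 CPM with TNF-α, and the 6 endothelial markers to 7.34 and 7.01 CPM. Cd3e was at 0 counts in both libraries and Adgre1, a macrophage marker, at 0 and 2. Other myeloid markers of that list were detected in both libraries. These were Lyz2 (114 and 109 counts), Csf1r (92 and 81), Cd68 (83 and 75) and Itgam (50 and 40). The 8 fibroblast markers summed to 517 CPM in the control and 507 CPM with TNF-α, with 3 of them lower and 5 higher. Within that list Dpt went from 20 counts to 622 and Dcn from 184 to 582. Pdgfrb (789 and 494 counts, log2 ratio -0.93) and Col3a1 (5628 and 4250 counts, log2 ratio -0.66) were lower. All 9 luminal markers with at least 10 counts were lower with TNF-α, with a summed level of 3542 CPM in the control and 2511 CPM with TNF-α, and Areg (-2.37), Pgr (-1.54), Esr1 (-1.48) and Prlr (-1.15) were past 2-fold. In such bulk RNA fewer cells of a type and less RNA per cell cannot be told apart, and the part of these markers in the desmosome values was not tested.

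Per length of transcript, Dsp was the most abundant of the 10 genes and Dsc1 the least abundant, in both libraries. Levels between genes are compared here as CPM per kilobase of exon (CPKM). In the control library the order was Dsp at 612 CPKM, Pkp1 at 154, Dsg3 at 80.5, Dsg2 at 39.8, Jup at 26.9, Dsc2 at 20.6, Dsc3 at 19.6, Pkp3 at 14.5, Dsg1a at 11.7 and Dsc1 at 7.37. The level of Dsp was thus above that of the other 9 genes combined. In the TNF-α library the top 5 places and the last 2 were held by the same genes, and Dsc2, which was sixth in the control, stood below Dsc3 and Pkp3. Counting intervals of neighbours overlapped for Dsc2 and Dsc3 in the control (20.1 to 21.2 and 19.1 to 20.2 CPKM). With TNF-α no neighbours overlapped in their counting intervals, and the closest were Dsc2 and Pkp3 (11.9 to 12.7 and 12.8 to 13.8 CPKM) and Dsc3 and Jup (16.3 to 17.29 and 17.32 to 18.2 CPKM). The spread between cultures is not in these Poisson intervals. Summed over the 10 genes the level was 987 CPKM in the control and 724 CPKM with TNF-α. Dsp accounted for 64.4% of that difference and Pkp1 for 16.9%, whereas Dsc1 and Dsg1a, with the lowest ratios, accounted for 2.54% and 2.95%. As reads, the 10 genes took 0.788% of the control library (95% Clopper-Pearson interval 0.785% to 0.790%) and 0.573% of the TNF-α library (0.571% to 0.575%).

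**Figure D2:**
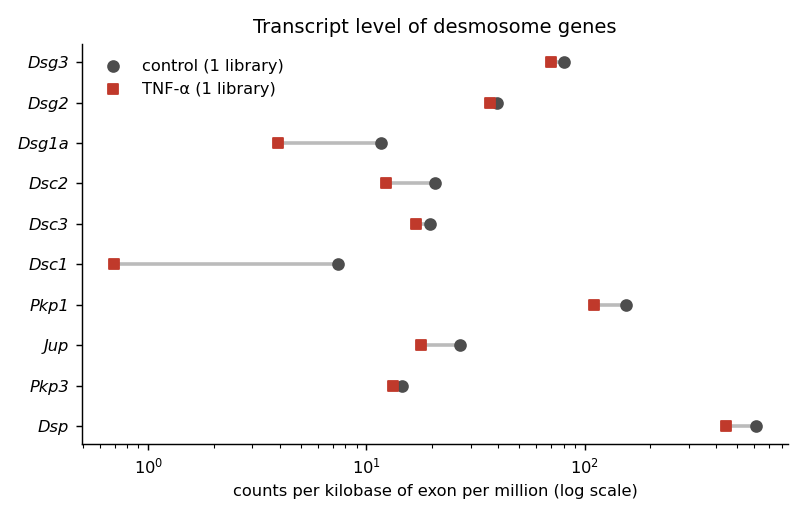
Level of each desmosome gene in CPM per kilobase of exon (horizontal log axis) in the control library (circles) and the TNF-α library (squares), 1 library each. Dsp is highest at 612 and 443 and Dsc1 lowest at 7.37 and 0.695, and each square lies left of its circle.

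Desmogleins carry much of the adhesion between desmosomal membranes, and the 3 family members studied differed from each other. Dsg3, the basal-layer desmoglein, had 14737 counts in the control and 15390 with TNF-α, which after scaling is 331 and 288 CPM. Its log2 ratio was -0.20 (95% interval -0.23 to -0.16). Dsg2, the desmoglein found in nearly all desmosome-bearing tissues, had 14677 and 16196 counts and a log2 ratio of -0.12 (-0.15 to -0.09). Of the well counted genes 24.9% lay below Dsg3 and 33.7% below Dsg2. Dsg1a, a mouse copy of the upper-layer desmoglein gene, had 2961 counts in the control and 1193 with TNF-α, or 66.4 and 22.4 CPM. Its log2 ratio was -1.57 (-1.67 to -1.47), and 0.717% of the well counted genes lay lower. Per kilobase Dsg1a supplied 8.85% of the transcripts of these 3 desmogleins in the control and 3.55% with TNF-α, while Dsg3 supplied 61.0% and 63.3%. The lead of Dsg3 depends on the division by exon length. As shares of reads, Dsg3 had 45.5% in the control and 47.0% with TNF-α, and Dsg2 had 45.3% and 49.4%. The ratio of Dsg1a to Dsg3 within a library, which does not depend on library scaling, differed by a log2 value of -1.37 (exact conditional 95% interval -1.48 to -1.27). For Dsg2 to Dsg3 the same measure was 0.08 (0.03 to 0.13).

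Mice have 3 copies of the Dsg1 gene, and reads from one copy may be counted on another. Of all 100-base windows of the annotated Dsg1a transcript, 24.6% occurred letter for letter in Dsg1b or Dsg1c, and for 150-base windows the share was 18.1%. Among the other 9 desmosome genes no 50-base window was shared with another gene of the set. The split of counts between the copies is therefore uncertain, so their sum was also taken. Dsg1a, Dsg1b and Dsg1c together had 4439 counts in the control and 1908 with TNF-α, a log2 ratio of -1.48 (-1.56 to -1.40). Taken singly, Dsg1b had 1215 and 640 counts (log2 ratio -1.18) and Dsg1c had 263 and 75 (log2 ratio -2.04), so that all 3 copies were more than 2-fold lower. Dsg4, a desmoglein of hair, had 4 counts in each library and was below the count minimum.

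Desmocollins are the partner cadherins of the desmogleins, and this family had the lowest ratio of the 10 genes. Dsc1, the upper-layer desmocollin, had 1240 counts in the control and 140 with TNF-α, or 27.8 and 2.62 CPM. Its log2 ratio was -3.39 (-3.67 to -3.15), and 0.128% of the well counted genes lay lower. Dsc1 is among those genes only through its control counts. Over all genes with at least 10 counts in sum 0.318% lay lower. Dsc2, the desmocollin of simple and stratified epithelia, had 4851 and 3471 counts, or 109 and 65.0 CPM. The log2 ratio of Dsc2 was -0.74 (-0.81 to -0.68), which is inside the 2-fold limit, and 3.49% of the well counted genes lay below it. Dsc3, the basal-layer desmocollin, had 4637 and 4758 counts and a log2 ratio of -0.22 (-0.28 to -0.16). In the control library Dsc2 and Dsc3 made up like shares of desmocollin transcripts per kilobase, 43.3% and 41.2%, and Dsc1 made up 15.5%. With TNF-α the shares were 41.3% for Dsc2, 56.3% for Dsc3 and 2.33% for Dsc1. The ratio of Dsc1 to Dsc3 differed between the libraries by a log2 value of -3.18 (-3.45 to -2.92) and that of Dsc2 to Dsc3 by -0.52 (-0.61 to -0.43). Between the families, the ratio of Dsc1 to Dsg1a differed by -1.84 (-2.12 to -1.56), a pair chosen after its values were seen. Dsc1 was thus lower than Dsg1a by more than counting error, although both are upper-layer genes.

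**Figure D3:**
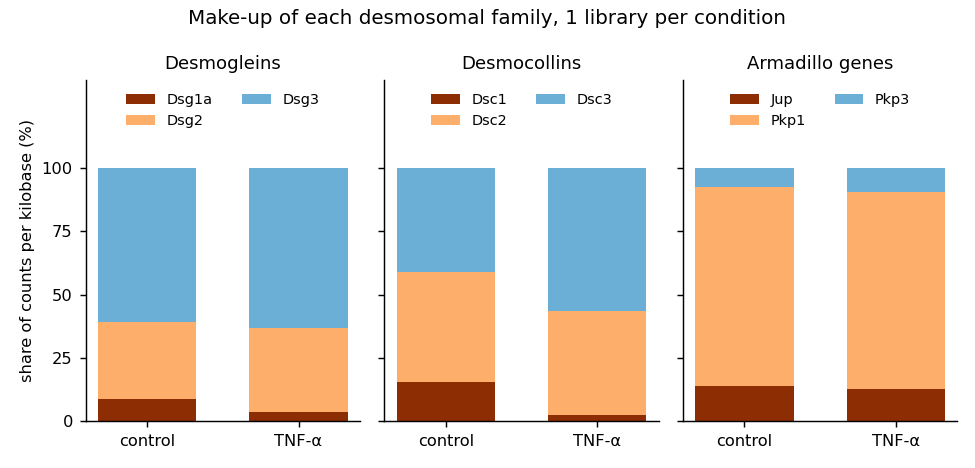
Share of counts per kilobase (vertical axis, %) of each gene within the desmogleins, the desmocollins and the armadillo genes, in 1 control and 1 TNF-α library. Dsc1 has 15.5% of the desmocollin bar in the control and 2.33% with TNF-α, Dsg1a has 8.85% and 3.55% of the desmoglein bar, and the armadillo bars differ by at most 2.04 percentage points.

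The 6 cadherin genes lie in one cluster on chromosome 18 of GRCm38, which allowed the ratios to be read along the DNA. From Dsc3 (19960930 to 20002097) to Dsg2 (20558074 to 20604521) the cluster spans 643592 bases, and 10 genes of the deposited table fall in it. In order of position the log2 ratios were -0.22 for Dsc3, -0.74 for Dsc2, -3.39 for Dsc1, -2.04 for Dsg1c, -1.57 for Dsg1a, -1.18 for Dsg1b, -0.20 for Dsg3 and -0.12 for Dsg2. The 4 lowest ratios thus belonged to the 4 genes in the middle of the cluster, from Dsc1 (20084703 to 20114773) to Dsg1b (20376729 to 20410196), and the values were closer to 0 at both ends. The Dsg1 copies among them share sequence, so their ratios are not fully separate readings. Dsg4, between Dsg1b and Dsg3, had 4 counts in each library and was left out of this order. The desmocollin genes lie on the minus strand and the desmoglein genes on the plus strand. Gm16090, an antisense gene that shares 330 exon bases with Dsg2 on the other strand, had a log2 ratio of -0.04. Whether counting used the strand is not stated, so reads from this overlap, 3.99% of the exon length of Dsg2, cannot be assigned to either gene.

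The armadillo genes encode the plaque proteins that sit between the cadherin tails and desmoplakin, and none of the 3 passed the 2-fold limit. Jup encodes plakoglobin, which also binds classical cadherins in adherens junctions. On chromosome 11 (100368958 to 100397763, minus strand) it had 7717 counts in the control and 6102 with TNF-α, or 173 and 114 CPM, and its log2 ratio of -0.60 (-0.65 to -0.55) was the lowest of the 3. Pkp1, the plakophilin of stratified epithelia, on chromosome 1 (135871395 to 135919207, minus strand), had 34544 and 29445 counts, or 775 and 552 CPM, and a log2 ratio of -0.49 (-0.51 to -0.47). Pkp3, a plakophilin of most epithelia, on chromosome 7 (141078218 to 141090510, plus strand), had 2334 and 2566 counts, or 52.4 and 48.1 CPM. Its log2 ratio was -0.12 (-0.20 to -0.04), the interval that came nearest to 0 among the 10 genes, and it was 0.03 when ratios were corrected for gene length and GC content. With that correction Jup was at -0.427 and Pkp1 at -0.433, so Jup was then not the lowest of the 3. Pkp1 supplied most of the armadillo transcripts per kilobase, at 78.8% in the control and 78.0% with TNF-α. The ratio of Pkp1 to Pkp3 differed between the libraries by a log2 value of -0.37 (-0.45 to -0.28).

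Desmoplakin is the link from the plaque to keratin, and Dsp was among the most heavily counted transcripts of both libraries. On chromosome 13 (38151328 to 38198577, plus strand) it had 262514 counts in the control and 227340 with TNF-α, or 5890 and 4260 CPM, and its log2 ratio was -0.47 (-0.48 to -0.46). Among the well counted genes 8.42% lay lower. Dsp and Pkp1 therefore had nearly the same ratio, and the ratio of Jup to Dsp differed between the libraries by a log2 value of only -0.13 (-0.18 to -0.08). Per kilobase there were 4.64 Dsp transcripts to 1 transcript of the 3 desmogleins in the control and 3.99 with TNF-α, 12.9 and 14.8 to 1 of the desmocollins, and 3.13 and 3.14 to 1 of the armadillo genes. The armadillo genes as a class thus stood in nearly the same proportion to Dsp in both libraries, while Dsp was higher relative to the desmocollins and lower relative to the desmogleins with TNF-α. Gm10129 overlaps 465 exon bases of Dsp on the other strand, and its counts were 664 and 589.

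The start regions of Dsp and Jup are shown because these genes carry the link to keratin and the lowest uncorrected armadillo ratio. They are also the 2 of the 10 genes matched in the RefSeq promoter table. Each sequence runs 5′ to 3′ on the gene's strand, from 250 bases before the RefSeq start to 50 bases after it on GRCm38.p6, which is chromosome 13, 38151044 to 38151343, plus strand, for Dsp, and chromosome 11, 100397741 to 100398040, minus strand, for Jup. Capitals mark matches on either strand to 6 motifs, namely AP-1 (TGANTCA), GRHL (AACCGGTT), KLF (CCACCC), the TATA box (TATAAA), the CCAAT box (CCAAT) and a loose NF-κB motif made of GGG and CC with 5 bases between.
Dsp: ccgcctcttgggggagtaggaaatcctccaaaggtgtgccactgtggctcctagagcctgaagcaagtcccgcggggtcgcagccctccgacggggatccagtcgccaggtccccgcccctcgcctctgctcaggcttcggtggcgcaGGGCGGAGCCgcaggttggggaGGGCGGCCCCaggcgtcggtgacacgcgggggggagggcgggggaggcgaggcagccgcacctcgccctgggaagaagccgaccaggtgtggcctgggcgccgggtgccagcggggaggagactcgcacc
Jup: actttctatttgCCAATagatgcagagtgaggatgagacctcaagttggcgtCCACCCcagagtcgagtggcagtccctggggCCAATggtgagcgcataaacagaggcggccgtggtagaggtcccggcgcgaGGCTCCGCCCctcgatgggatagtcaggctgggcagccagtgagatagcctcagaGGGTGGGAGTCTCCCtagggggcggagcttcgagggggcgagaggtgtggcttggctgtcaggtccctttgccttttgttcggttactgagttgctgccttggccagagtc

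Both promoters were rich in G and C, at 73% for Dsp and 60.7% for Jup, where the median of 32851 promoter windows was 52.7%. The loose NF-κB motif matched 3 times in each of them, counted by strand, and it matched in 50.8% of all windows. In Dsp 2 of these matches are the same bases read on either strand. Jup also held 2 KLF matches, of which the one nearer to the start overlaps NF-κB motif matches, and 2 CCAAT boxes. A KLF match was in 31.5% of all windows and a CCAAT box in 37.4%. AP-1, GRHL and TATA motifs, in 7.81%, 0.146% and 13.6% of all windows, had no match in either sequence. These matches describe letters and not bound sites.

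Further genes of the desmosome and the cell envelope were taken as a list of 9, of which 8 had at least 10 counts in sum. Their median log2 ratio was -0.64, with 6 lower and 2 higher, and 3 were more than 2-fold lower (Dsg1b, Dsg1c and Evpl). Evpl, the gene of envoplakin, had 12174 and 7280 counts and stood right at the limit, with a log2 ratio of -1.001 (-1.04 to -0.96), and it was inside the limit with DESeq2 size factors or reference gene scaling. Periplakin is the partner of envoplakin, and its gene Ppl was at -0.59 with 30486 and 24299 counts. Perp, which encodes a tetraspan membrane protein of desmosomes and is a target of p63, had 23342 and 20256 counts and a log2 ratio of -0.46 (-0.49 to -0.44), close to that of Dsp. Cdsn, the gene of corneodesmosin, a protein of the outermost desmosomes of skin, was at -0.69 with 861 and 638 counts. The remaining plakophilin genes lay on the other side of 0. Pkp2, a plakophilin of simple epithelia and heart, had 870 and 1261 counts and a log2 ratio of 0.28 (0.15 to 0.40), and Pkp4 had 2672 and 3970 counts and a log2 ratio of 0.31 (0.24 to 0.38). The ratio of Pkp1 to Pkp2 was 42.4 per kilobase in the control and 24.9 with TNF-α, a pair chosen after its values were seen.

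Adherens junctions, the neighbouring cadherin junctions that anchor actin, were spread to both sides of 0. Of 10 genes 4 were lower and 6 higher, none passed the 2-fold limit, and the median was 0.03. The cadherin genes of this list differed in direction. Cdh1, which encodes E-cadherin, had 26310 and 36015 counts and a log2 ratio of 0.19 (0.17 to 0.22). Cdh3, which encodes P-cadherin, had 6607 and 6125 counts and a log2 ratio of -0.37 (-0.42 to -0.32). Ctnnb1, which encodes β-catenin, the close relative of plakoglobin, was at 0.41 (0.39 to 0.44) with 21235 and 33846 counts. Ctnnd1, for p120 catenin, was the highest at 0.45, and Nectin1 the lowest at -0.65. The ratio of Jup to Ctnnb1 was 0.293 per kilobase in the control and 0.145 with TNF-α, which is a log2 difference of -1.01 (-1.07 to -0.96). That pair was chosen after its values were seen. Hemidesmosomes fix basal cells to the basement membrane, and of 9 such genes 4 were lower and 5 higher with none past 2-fold and a median of 0.06. Plec, the gene of the plakin plectin, was lowest at -0.38.

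**Figure D4:**
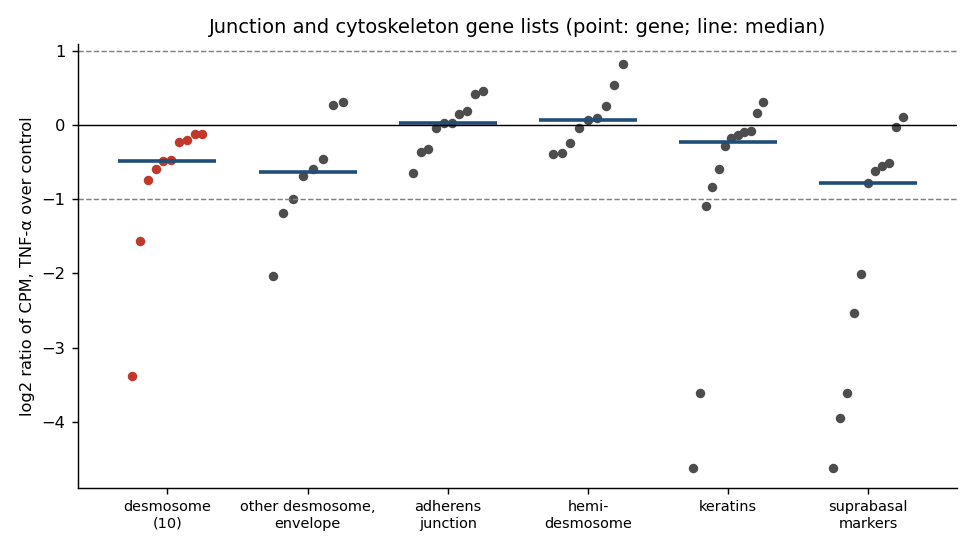
Log2 ratio of CPM, TNF-α over control (vertical axis), for each gene with at least 10 counts in 6 gene lists, with 1 library per condition. The horizontal bars are list medians, -0.48 for the 10 desmosome genes (red), -0.64 for the further desmosome and envelope genes, 0.03 for adherens junctions, 0.06 for hemidesmosomes, -0.23 for keratins and -0.78 for suprabasal markers, and the dashed lines mark 2-fold.

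Keratins are the filaments that desmosomes hold. Of 12 keratin genes 10 were lower and 2 higher, with a median of -0.23, and Krt1, Krt10 and Krt15 were more than 2-fold lower. The basal pair Krt5 and Krt14 had log2 ratios of 0.16 and -0.08, and Krt17 was highest at 0.31. Dsp relative to Krt5 was 0.546 per kilobase in the control and 0.352 with TNF-α. Krt1 and Krt10, the keratin pair of the suprabasal layers, had 1775 and 172 counts (log2 ratio -3.61) and 4433 and 214 counts (log2 ratio -4.62). The ratio of Dsc1 to Krt1 differed between the libraries by a log2 value of 0.22, with a counting interval from -0.13 to 0.57 that holds 0. For Dsc1 to Krt10 it was 1.23 (0.89 to 1.55), for Dsg1a to Krt1 2.06 (1.81 to 2.31) and for Dsg1a to Krt10 3.06 (2.84 to 3.29). These pairs were chosen after their values were seen. Dsc1 thus stood near Krt1 in its ratio, and Dsg1a was less low than either keratin.

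Markers of suprabasal squamous cells were lower too. Of 12 listed genes 11 had at least 10 counts, and with TNF-α 10 of these were lower and 1 was higher. Past 2-fold lower were 5 genes (Krt1, Krt10, Flg, Ivl and Krtdap). Involucrin, a cornified envelope protein encoded by Ivl, had 6467 and 1341 counts, a log2 ratio of -2.53 (-2.62 to -2.44). Flg, for filaggrin, had 440 and 32 counts and a log2 ratio of -3.95. The summed level of the list was 638 CPM in the control and 248 CPM with TNF-α. Lor and Tgm3, which mark late cornification, were near the detection limit in both libraries, at 15 and 12 counts and at 6 and 7. Sprr1b had 4 counts in the control and was at 0 with TNF-α. The part of suprabasal cells in the Dsc1 and Dsg1a values was not tested.

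Proteases that cut cadherins and factors linked to desmosome gene expression were listed as well. Of 10 protease genes with at least 10 counts 2 were more than 2-fold higher and 2 more than 2-fold lower, with a median of 0.17. The matrix metalloproteinase genes Mmp3 and Mmp9 were higher, with 46 and 5397 counts and with 97 and 804 counts. Klk7 and Klk5, kallikreins known to digest desmosomal proteins in skin, were lower, with 253 and 43 counts and with 14 and 6, and Klk5 was not past 2-fold with a prior count of 5 and was left out by a minimum of 1 CPM. Adam17, the sheddase also called TACE, which can cut desmoglein 2, had 3484 and 6127 counts and a log2 ratio of 0.55 (0.49 to 0.62). Among 16 transcription factor genes the median was 0.01, with 8 lower and 8 higher. Zeb2, which encodes a repressor of epithelial genes, was the one past 2-fold at 1.03 (616 and 1507 counts). Its counting interval, 0.89 to 1.17, holds the 2-fold limit. In the same list Zeb1 was at 0.91 (420 and 948 counts) and Snai2 at -0.40 (1532 and 1385 counts). Trp63 was at 0.03 (-0.01 to 0.07). Grhl1, a grainyhead-like factor known to act on Dsg1 in skin, was the lowest at -0.62 (-0.68 to -0.55) with 4218 and 3291 counts. Of 13 genes for desmosome assembly, transport and signalling, among them Prkca and Kif5b, 8 were lower and 5 higher, none passed 2-fold, and all lay between -0.32 for Zdhhc8 and 0.25 for Clasp2.

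**Figure D5:**
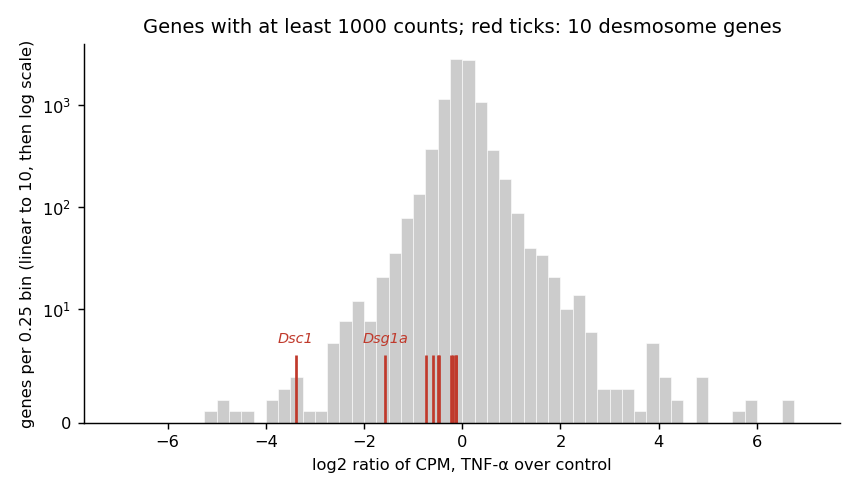
Distribution of log2 ratios of CPM, TNF-α over control, for the 9345 genes with at least 1000 counts in sum (bars, genes per bin of 0.25, on an axis that is linear up to 10 and logarithmic above). Red ticks mark the 10 desmosome genes, all of them below 0, with Dsc1 at -3.39 and Dsg1a at -1.57 in the thin left tail.

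The direction was the same under each library scaling. Between the library scalings tried, by total counts, DESeq2 size factors, upper quartile and 14 reference genes, all 10 genes stayed below 0, and the median over all genes lay between -0.0042 and 0.026. These scalings lay close together, with TNF-α over control library sizes from 1.179 to 1.205 and 1.197 under TMM. They could therefore move the ratios only slightly and were a weak check of direction. The GC and length correction, which is not a scaling, placed Pkp3 at 0.03. If both ends of each read pair were counted singly, as the excess of genes with 2 counts (2172 in the control) over those with 1 count (618) would allow, the counting intervals widen. With counts halved, under TMM scaling alone, the intervals still lay below 0 for all 10 genes. The one nearest to 0 was that of Pkp3, from -0.24 to -0.01.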

How the data were processed

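RNA-seq of 1 control and 1 TNF-α library was analysed, with reads from a HiSeq X 10 sequencer. The authors deposited raw read counts per gene, not normalized, with exon coordinates and summed exon length. The labels name the builds GRCm38 and mm10, and the aligner, counter and strand setting are not given in the sources used here. Labels and methods name different RNA extraction kits. TMM scaling of library sizes used edgeR 4.0.16 in R 4.3.3, and log2 ratios of CPM with 2 prior counts were computed for genes with at least 10 counts in sum, where a gene was called past 2-fold. With 1 library per group no quasi-likelihood test could be fitted. Counting intervals were exact (Clopper-Pearson at 95%, Fisher's conditional interval for pairs, Poisson for levels). 10 counts are 0.225 CPM in the control and 0.187 CPM with TNF-α. Shared windows were counted in GENCODE M21 transcripts, and promoters came from RefSeq on GRCm38.p6. The calls were tested on simulated data that held counting error only. That test could not cover variation between cultures. The desmosome genes and the lists were chosen with earlier results of these data known. Named are the 10 desmosome genes and, from each list, genes past 2-fold and the extremes with at least 200 counts, and other genes were named after their values were seen. Some genes of the lists that this rule would name are not reported here. Listed genes under older names (Pvrl1, Pvrl2, Pvrl4, Erbb2ip) were matched to current ones. Python 3.11.15, scipy 1.17.1 and statsmodels 0.14.6 were used, with DESeq2 1.42.0 for alternative size factors.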

Additional observations from a re-analysis of the deposited data

How the results depend on the processing

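No paired analysis was possible because there was 1 library to a condition, which also left no replicate to drop. The count of desmosome genes more than 2-fold lower was 2 under every alternative of scaling, filter, prior count and halved counts, and after a lowess correction on GC content and gene length that was chosen after seeing the data. With a 1.5-fold limit it was 4, because the limit is lower (13.7% of all tested genes were lower there). The count more than 2-fold higher was 0 throughout. The filters left all 10 ratios as they were, so they could not alter these counts. The ratios nearest to the 2-fold limit, -0.74 for Dsc2 and -1.57 for Dsg1a, were not close to it either. The median of -0.48 was -0.46 with scaling on 14 reference genes, among them B2m, whose own log2 ratio was 2.27, and -0.42 after the GC and length correction, and the cause was not tested. That correction also placed Pkp3 at 0.03, the one change of sign among the 10 genes. Of the 100 values of single desmosome genes under alternatives 93 stayed within their counting interval. Among these were the values under the filters, which could not move. The further desmosome and envelope genes more than 2-fold lower were 2 in place of 3 with DESeq2 size factors, with reference gene scaling and after the correction. The list median of the suprabasal markers became -1.65 with at least 1 CPM in a library and -1.23 with no filter, and that of the proteases, 0.17, became 0.29 and 0.049. Without division by exon length, 14 of the shares within the families moved beyond counting error and 4 did not. Dsc1 rests on 140 counts with TNF-α, the fewest of the 10 genes.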
